A study of Mus musculus with 18 samples.

Results

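The sarcomeric myosin heavy chains are the motor proteins of the thick filament of striated muscle. In pooled myofibers of adult mice, 8 of their genes were followed here: Myh1, Myh2, Myh3, Myh4, Myh6, Myh7, Myh7b and Myh8. Members were all probes outside the control set whose gene name in the scanner files is one of these 8, which gave 13 of the 55681 probe names on the array. The 8 genes stand among 35527 gene names. Pools of 5 to 10 myofibers were taken from wild-type CD1 female mice aged 3 months and separated into nuclei and cytoplasm. EDL (extensor digitorum longus) and TA (tibialis anterior) are muscles rich in fast fibers, and soleus is rich in slow fibers. Each muscle and fraction had 3 arrays, 18 in all: EDL cytoplasm, EDL nuclei, soleus cytoplasm, soleus nuclei, TA cytoplasm and TA nuclei. EDL and soleus samples of 1 replicate number came from the same pair of mice. TA cytoplasm 1 and 2 were pools of 2 mice each that had 1 mouse in common, TA cytoplasm 3 and each TA nuclei sample came from a single mouse, and the mice of TA nuclei 1 and 2 also gave fibers to TA cytoplasm of the same number. The mouse common to TA cytoplasm 1 and 2 was also one of the pair of EDL and soleus 2, and the mouse of TA nuclei 3 was one of the pair of EDL and soleus 1, so that the muscles were not independent in mice. The comparisons address how muscle type and the compartment of the myofiber bear on the level of each transcript.

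A muscle fiber is classed by the myosin heavy chain it contains. Myh7 encodes the slow type I chain, Myh2 the IIa chain, Myh1 the IIx chain and Myh4 the IIb chain, the fastest of the adult limb. Myh3 encodes the embryonic chain and Myh8 the perinatal chain, both known for developing and regenerating muscle. Myh6 encodes the alpha chain of cardiac muscle, and Myh7b a slow-type chain related to both. Myh3, Myh2, Myh1, Myh4 and Myh8 lie in this order in a cluster on chromosome 11, Myh6 and Myh7 lie next to each other on chromosome 14, and Myh7b lies on chromosome 2 (GRCm38.p6).

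Myh1, Myh2, Myh4, Myh7 and Myh7b had 1 probe each, Myh3 and Myh6 had 2 and Myh8 had 4. All probes are 60 bases long, with a GC content of 35% to 60%. The sequences below are the probes on which results turn, because probes of 1 gene differed or because the probe is the only one of its gene. Positions are those of the array annotation (mm9), and the sequence reads as the transcript does. Both Myh8 probes that gave a signal lie on chromosome 11, 28450 bases apart, at chr11:67121925-67121984 and chr11:67093475-67093534 on the plus strand. The Myh6 probe shown lies at chr14:55584132-55584191 on the minus strand, 23358 bases from the other Myh6 probe. The Myh3 probe shown lies at chr11:66915107-66915166 and the Myh7b probe at chr2:155459122-155459181, both on the plus strand. Capitals mark a run of 24 bases that the Myh3 probe shares with the probe of Myh15, the only run of 20 bases or more shared between a member probe and any other probe of the array.
Myh8 A_51_P143296: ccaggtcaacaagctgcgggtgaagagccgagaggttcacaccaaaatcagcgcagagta
Myh8 A_55_P2120161: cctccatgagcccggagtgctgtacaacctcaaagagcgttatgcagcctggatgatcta
Myh6 A_55_P2140453: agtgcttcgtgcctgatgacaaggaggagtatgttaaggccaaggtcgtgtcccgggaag
Myh3 A_55_P2083406: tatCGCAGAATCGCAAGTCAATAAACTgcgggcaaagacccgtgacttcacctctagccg
Myh7b A_55_P2057321: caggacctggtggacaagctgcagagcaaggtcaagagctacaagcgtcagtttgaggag
Myosin heavy chains are alike in coding sequence, and whether transcripts of other members bind these probes was not tested.

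Myh6, Myh7 and Myh7b are hosts of a microRNA of the muscle-specific family, which is shown because it ties the slow and cardiac members together by sequence. The mature sequences are from RefSeq (GRCm38.p6), with the seed, bases 2 to 8, in capitals. The first is encoded within Myh6 (chr14:54949072-54949093, minus strand), the next within Myh7 (chr14:54975710-54975731, minus strand) and the last within Myh7b (chr2:155622893-155622913, plus strand).
mmu-miR-208a-3p: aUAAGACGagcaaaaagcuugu
mmu-miR-208b-3p: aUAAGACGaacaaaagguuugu
mmu-miR-499-5p: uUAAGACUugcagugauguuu
The microRNAs of Myh6 and Myh7 share the seed UAAGACG, and that of Myh7b has the seed UAAGACU. The array carries 0 probes under the gene names of these 3 microRNAs, so that only the host transcripts were measured.

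Myh1, Myh2, Myh4 and Myh8 of the chromosome 11 cluster also share sequence before their start. A search of RefSeq windows of a fixed length, directly before each gene start, found 14 bases in common, TTCTAATTATATCC, in the windows of these genes. They are the longest run common to these 4 genes, so their presence in these windows was fixed by the search. Counted on both strands, they stood in 4 of 32851 windows (0.0122%) and in no window of another gene. This count is a description, and whether the run is more than likeness of neighbouring genes was not tested. Myh1, Myh2 and Myh4 shared the longer run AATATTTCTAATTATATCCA, found by the same kind of search, which stood in 3 windows (0.00913%) and contains the 14 bases. The TATAAAA motif stood in 1636 windows (4.98%), those of Myh1, Myh3 and Myh4 among them. The windows are given because genes with this shared run differed between muscles in opposite directions. Each is 100 bases of the plus strand of chromosome 11 (GRCm38.p6), at chr11:67170842-67170941 for Myh2, chr11:67199882-67199981 for Myh1, chr11:67237594-67237693 for Myh4 and chr11:67277010-67277109 for Myh8, with the 14 bases in capitals.
Myh2: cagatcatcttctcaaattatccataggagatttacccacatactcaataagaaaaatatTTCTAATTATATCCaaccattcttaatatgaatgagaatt
Myh1: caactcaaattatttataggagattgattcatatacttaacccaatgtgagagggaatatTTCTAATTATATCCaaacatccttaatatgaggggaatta
Myh4: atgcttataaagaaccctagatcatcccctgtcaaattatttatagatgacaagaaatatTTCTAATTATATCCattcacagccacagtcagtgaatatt
Myh8: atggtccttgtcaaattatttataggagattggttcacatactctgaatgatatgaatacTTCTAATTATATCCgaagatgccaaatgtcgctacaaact

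Levels are log2 of the array intensity after quantile normalization, and a difference is in log2, so that 1 is a doubling. A difference was called at an adjusted p of limma's moderated test below 0.05 (Benjamini-Hochberg over all probes tested). Levels of different probes are not comparable with each other. The 6 myofiber markers (Acta1, Ckm, Mb, Des, Tnnt3, Pygm) were well above background on all 18 arrays. Of 13 member probes, 12 were tested, and 1 Myh8 probe (A_51_P239800) had values on too few arrays. Nuclear arrays of a muscle were much closer to each other than cytoplasmic arrays: the median SD over all probes was 0.124 to 0.164 in nuclei and 0.281 to 0.416 in cytoplasm, and the SD of the members' groups had a median of 0.08 in nuclei and 0.29 in cytoplasm. For probes with repeated spots, the mean over spots had a median SD of 0.051 between EDL nuclear arrays and 0.064 between soleus nuclear arrays, and single spots of one array had a median SD of 0.109 and 0.107. Arrays differed by more than the spread of their spots (F test, unadjusted p below 0.05) in 32% of these probes in EDL nuclei. The share was 47.5% in soleus nuclei, 66.4% in TA nuclei and 87.8% to 94.4% in the cytoplasm groups. The 18-array fit uses 1 spread per probe for both fractions, so calls between muscles are given also from the 9 arrays of the fraction alone. All EDL and soleus cytoplasm arrays and TA cytoplasm 1 were on one slide, EDL and soleus nuclei on another, TA cytoplasm 2 and TA nuclei together on a separate slide, and TA cytoplasm 3 alone on another. TA cytoplasm 1 was scanned on the same day as EDL and soleus cytoplasm, and the other TA arrays together on another day. In EDL and soleus, fraction thus cannot be told apart from slide, while soleus and EDL were compared within a slide. The labels name different mice within a group of EDL or soleus, but with so small a spread the p-values between nuclear groups may measure technical spread only. A lower level can reflect fewer fibers of a type or less RNA per fiber, which cannot be told apart here.

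**Figure D1:**
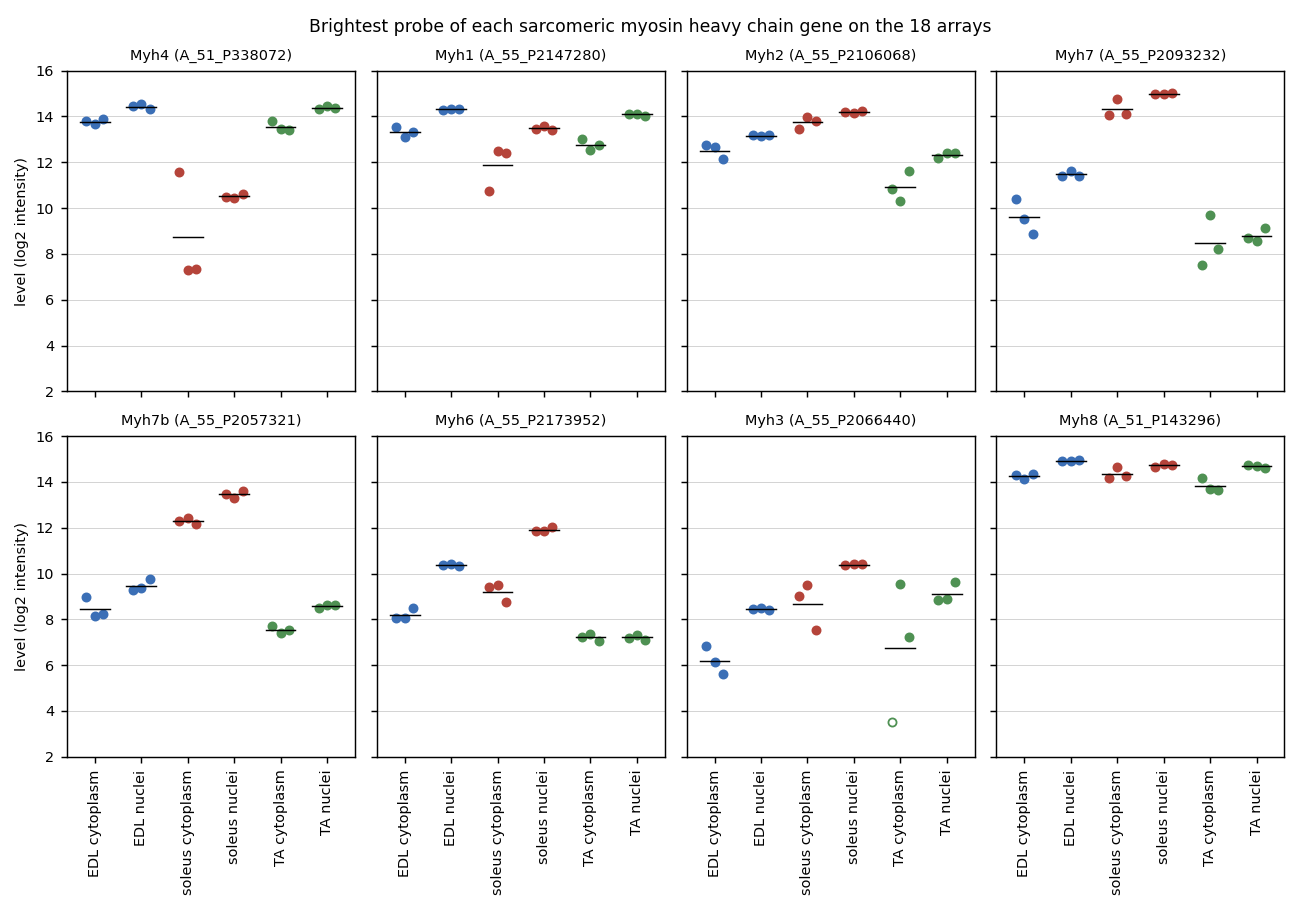
Level (log2 intensity) of the brightest probe of each gene on the 18 arrays, 3 per muscle and fraction, with black lines at group means and open points where the spot was not well above background. Myh4 is lowest in soleus, Myh7, Myh7b and Myh6 are highest in soleus, and Myh8 is near the same level in the 6 groups.

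Between soleus and EDL, Myh4 and Myh1 were called lower in soleus in at least one fraction, and Myh6, Myh7, Myh7b and the fast IIa gene Myh2 higher. Soleus nuclei had higher levels than EDL nuclei for both Myh6 probes, Myh7 and Myh7b, and lower levels for Myh4 and 1 Myh8 probe. In nuclei, 4 of 12 member probes were called higher in soleus against 0.978% of all probes, and 2 were called lower against 0.579%. In cytoplasm, 5 were called higher against 0.853%, and 2 were called lower against 0.570%. With the 9 nuclear arrays alone, 7 members were higher and 3 lower in soleus nuclei (background 7.87% and 5.45%). With the 9 cytoplasmic arrays alone, 3 members were higher in soleus cytoplasm, namely Myh6 (A_55_P2140453), Myh7 and Myh7b, and 0 were lower (background 0.0660% and 0.0242%). The median member difference, soleus minus EDL, was 1.28 in nuclei and 1.12 in cytoplasm, where the medians of all probes were 0.02 and -0.08. With EDL and soleus paired by mice (the replicate number as a block), 4 members in place of 7 were called in cytoplasm.

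Myh4, the IIb gene, separated soleus from the fast muscles. Nuclear levels of Myh4 were 14.44, 14.54 and 14.32 in EDL, 10.48, 10.44 and 10.61 in soleus and, in TA, 14.33, 14.46 and 14.35. In cytoplasm they were 13.79, 13.66 and 13.88 in EDL, 11.59, 7.29 and 7.36 in soleus and, in TA, 13.78, 13.45 and 13.40. All soleus arrays lay below all EDL and TA arrays of their fraction, and soleus cytoplasm 1 lay over 4 log2 units above the other two. Soleus minus EDL was -3.92 in nuclei (adjusted p = 0.0113, and 0.0511 to 0.0541 without EDL nuclei 2 or soleus nuclei 1 or 2) and -5.03 in cytoplasm (adjusted p = 0.00231), with an SE of 0.74, and TA minus soleus was 3.87 (adjusted p = 0.00273) and 4.80 (adjusted p = 0.000559). TA and EDL were not called different, with differences of -0.05 (95% interval -1.64 to 1.53) in nuclei and -0.23 in cytoplasm. The soleus cytoplasm difference from EDL was not called on cytoplasmic arrays alone (adjusted p = 0.124). Without soleus cytoplasm 1 it was -6.46 in the fit of both fractions (adjusted p = 6.01e-11).

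Myh1, the IIx gene, differed less. Its levels were 14.29, 14.33 and 14.32 in EDL nuclei, 13.46, 13.60 and 13.42 in soleus nuclei and 14.13, 14.13 and 14.03 in TA nuclei. The cytoplasm held 13.55, 13.12 and 13.34 in EDL, 10.77, 12.48 and 12.39 in soleus and, in TA, 13.00, 12.55 and 12.78. Soleus arrays were below EDL arrays in both fractions without overlap. Soleus minus EDL was -0.82 in nuclei (adjusted p = 0.376, and 0.000542 on nuclear arrays alone). In cytoplasm it was -1.46 (adjusted p = 0.0393), a call that was lost on cytoplasmic arrays alone (adjusted p = 0.473) with pairing by mice (adjusted p = 0.0910), with 75th percentile scaling (adjusted p = 0.0839) and without any single EDL cytoplasm array (adjusted p = 0.0788 to 0.0993).

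Myh2, the IIa gene, was the fast member with its highest levels in soleus and its lowest in TA. Nuclear levels were 13.19, 13.14 and 13.17 in EDL, 14.17, 14.16 and 14.23 in soleus and, in TA, 12.17, 12.41 and 12.39. Cytoplasmic levels were 12.75, 12.66 and 12.13 in EDL, 13.46, 13.996 and 13.79 in soleus and, in TA, 10.83, 10.32 and 11.60. The 3 muscles did not overlap in either fraction. TA minus soleus was -1.86 in nuclei (adjusted p = 0.000334) and -2.83 in cytoplasm (adjusted p = 9.60e-06), and TA minus EDL was -0.85 (adjusted p = 0.0405) and -1.60 (adjusted p = 0.00311, and 0.150 on cytoplasmic arrays alone). The nuclear TA difference from EDL was not called with 75th percentile scaling (-0.60, adjusted p = 0.199), without the filter on dim spots (adjusted p = 0.0618) or without any single EDL or TA nuclear array (adjusted p = 0.0777 to 0.117). Soleus minus EDL was 1.02 in nuclei (adjusted p = 0.0773, and 0.000310 on nuclear arrays alone). In cytoplasm it was 1.24 (adjusted p = 0.0313), a call lost on cytoplasmic arrays alone (adjusted p = 0.464), with pairing by mice (adjusted p = 0.0537) and without EDL cytoplasm 2 or 3 or soleus cytoplasm 2 or 3 (adjusted p = 0.0564 to 0.110).

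Myh7, the slow type I gene, was the reverse of Myh4. Its nuclear levels were 11.41, 11.60 and 11.41 in EDL, 14.97, 14.99 and 15.03 in soleus and, in TA, 8.72, 8.54 and 9.12. In cytoplasm EDL gave 10.39, 9.51 and 8.88, soleus 14.08, 14.78 and 14.12 and TA 7.53, 9.70 and 8.23. Soleus exceeded both other muscles without overlap, while EDL and TA overlapped in cytoplasm only. Soleus minus EDL was 3.52 in nuclei (adjusted p = 0.000411) and 4.73 in cytoplasm (adjusted p = 3.29e-05), with an SE of 0.44. TA minus EDL was -2.68 in nuclei (adjusted p = 0.00167) and -1.11 in cytoplasm (adjusted p = 0.113). A probe annotated as LOC674761 lies directly beside the Myh7 probe (chr14:55589521-55589580, mm9, minus strand). The neighbour gave 14.49 to 14.62 in soleus nuclei, 11.62 to 11.69 in EDL nuclei and 5.38 to 5.97 in TA nuclei, so that TA minus EDL was -6.02 (adjusted p = 3.71e-06) there. Which of the 2 probes follows the Myh7 transcript in TA was not tested.

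Myh7b, whose transcript is known to be made in slow fibers, had its highest level in soleus in each fraction. Levels were 9.30, 9.35 and 9.75 in EDL nuclei, 13.45, 13.31 and 13.60 in soleus nuclei and 8.47, 8.61 and 8.61 in TA nuclei. The cytoplasm gave 8.97, 8.15 and 8.22 in EDL, 12.28, 12.43 and 12.16 in soleus and, in TA, 7.69, 7.41 and 7.55, and the muscles did not overlap. Soleus minus EDL was 3.98 in nuclei (adjusted p = 2.57e-07) and 3.84 in cytoplasm (adjusted p = 2.45e-07), with an SE of 0.21. TA minus EDL was -0.90 in nuclei (adjusted p = 0.0116, and 0.0589 without EDL nuclei 3) and -0.89 in cytoplasm (adjusted p = 0.0166). The latter was not called on cytoplasmic arrays alone (adjusted p = 0.198), without EDL cytoplasm 1 (adjusted p = 0.0644) or without TA cytoplasm 2 (adjusted p = 0.0848).

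Myh6, the cardiac alpha chain, followed the slow genes by both of its probes. The brighter probe (A_55_P2173952) gave 10.38, 10.43 and 10.35 in EDL nuclei, 11.85, 11.85 and 12.04 in soleus nuclei and 7.20, 7.33 and 7.10 in TA nuclei. In cytoplasm it gave 8.05, 8.05 and 8.49 in EDL, 9.39, 9.50 and 8.73 in soleus and, in TA, 7.25, 7.37 and 7.04. EDL, soleus and TA did not overlap in either fraction. Soleus minus EDL was 1.53 in nuclei (adjusted p = 0.000718) and 1.01 in cytoplasm (adjusted p = 0.0221). The cytoplasmic call was lost on cytoplasmic arrays alone (adjusted p = 0.464), with pairing by mice (adjusted p = 0.0731) and without EDL cytoplasm 1 or 2 or soleus cytoplasm 1 or 2 (adjusted p = 0.0549 to 0.0916). For the other probe (A_55_P2140453) the same differences were larger, 4.60 in nuclei (adjusted p = 1.69e-06) and 5.04 in cytoplasm (adjusted p = 1.09e-06), and TA minus soleus was -6.93 in nuclei and -5.58 in cytoplasm, where 1 of 3 TA nuclear and 2 of 3 TA cytoplasmic arrays were well above background. Other cardiac markers (Nppa, Nppb, Myl7, Tnni3, Tnnt2 and Actc1) had a summed level of 9.20 to 9.83 in soleus nuclei, 10.26 to 11.08 in EDL nuclei and 12.47 to 12.71 in TA nuclei. Most of this sum was Actc1, the cardiac actin, with 8.21 to 9.23 in soleus nuclei, 9.85 to 10.83 in EDL nuclei and 12.33 to 12.56 in TA nuclei. Myl7, the atrial regulatory light chain, gave 4.46 to 4.90 in soleus nuclei and was not well above background in EDL and TA nuclei. Tnni3, the cardiac troponin I, gave 4.55 to 5.09 in soleus nuclei, 4.11 to 4.29 in EDL nuclei and was not well above background in TA nuclei. Tnnt2 ran the other way in nuclei, with 6.3 to 6.5 in soleus nuclei, 6.7 to 6.9 in EDL nuclei and 8.2 to 8.6 in TA nuclei. Its cytoplasmic levels were 5.27, 7.92 and 7.89 in soleus and 4.54, 8.80 and 7.09 in TA. In EDL cytoplasm they were 5.57, 4.46 (not well above background) and 5.48. Of the 6 markers, 0 were called higher and 0 lower in soleus nuclei than in EDL nuclei, beside 0.978% and 0.579% of all probes. The part of these markers in the Myh6 result was not tested.

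**Figure D2:**
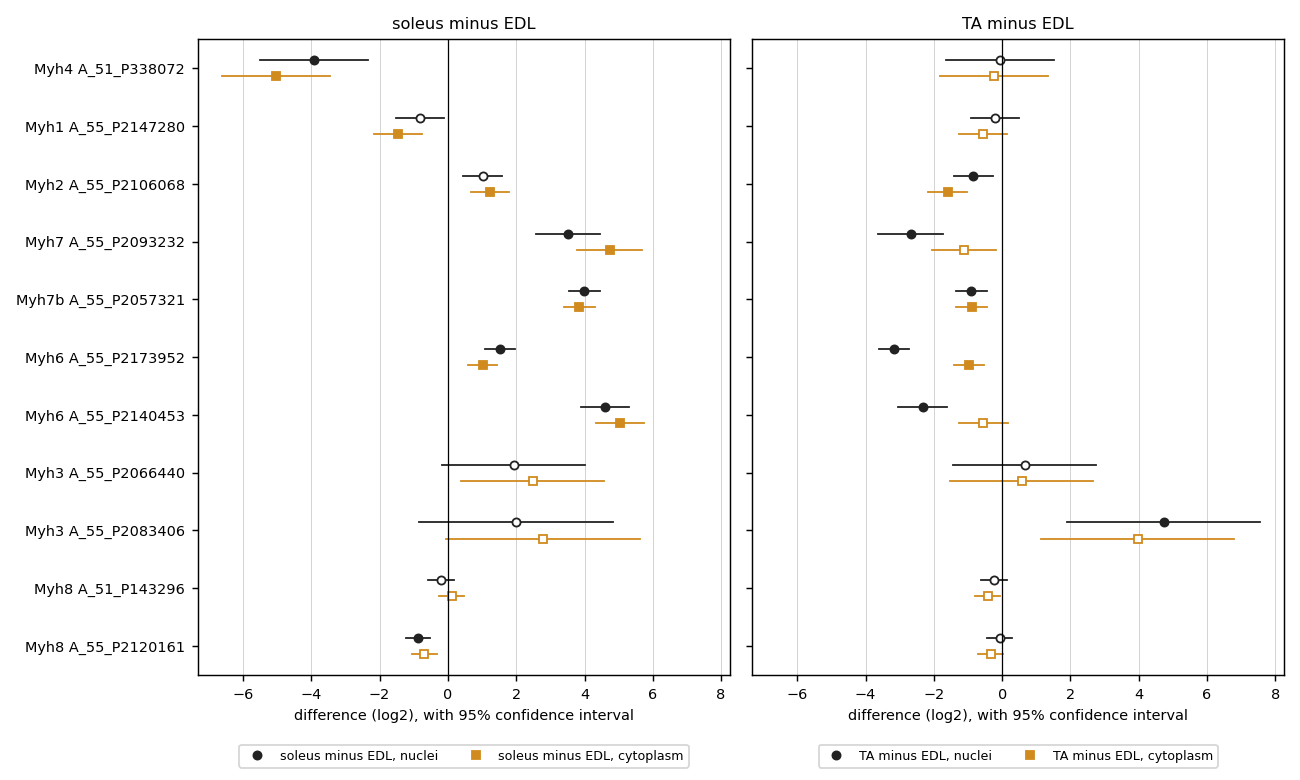
Difference (log2) between soleus and EDL (left) and TA and EDL (right) for 11 member probes, in nuclei (black circles) and cytoplasm (orange squares), with 95% confidence intervals and filled symbols where the adjusted p of the 18-array fit was below 0.05. In soleus Myh4 lies at -3.92 and -5.03 and Myh7b at 3.98 and 3.84, whereas in TA the Myh7, Myh7b and Myh6 probes lie below 0.

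Myh3, the embryonic chain, was uneven in TA. The brighter probe (A_55_P2066440) gave 8.86, 8.88 and 9.62 in TA nuclei but 3.53, 9.54 and 7.22 in TA cytoplasm, where replicate 1 was not well above background. In EDL it gave 8.47, 8.49 and 8.42 in nuclei and 6.85, 6.12 and 5.61 in cytoplasm, and in soleus 10.35, 10.40 and 10.40 in nuclei and 9.00, 9.50 and 7.52 in cytoplasm. The probe printed above (A_55_P2083406) gave 11.46, 11.37 and 12.12 in TA nuclei and 3.98, 12.39 and 9.76 in TA cytoplasm, against 3.94 to 8.97 on all EDL and soleus arrays. TA cytoplasm 1 was low for both probes, and the other two TA cytoplasm arrays were apart from it. TA minus EDL in nuclei was 4.73 for the latter probe (26.5-fold, adjusted p = 0.0260, and 2.90e-06 on nuclear arrays alone) and 0.66 for the brighter one (adjusted p = 0.679). In the fit of both fractions the former call was lost without any single EDL or TA nuclear array (adjusted p = 0.0570 to 0.0840). In cytoplasm the difference for A_55_P2083406 was 3.97 (adjusted p = 0.0629), and without TA cytoplasm 1 it was 6.33 (adjusted p = 7.00e-06). The Myh15 probe that shares 24 bases had no value on TA nuclei.

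Cdh15 and Acta2 were also low in TA cytoplasm 1, which differed from the other TA arrays in slide and scan day. Cdh15, a cadherin of satellite cells and myoblasts, gave 6.60, 12.53 and 11.55 in TA cytoplasm and 12.12, 11.88 and 12.19 in TA nuclei, and Acta2, the smooth muscle actin, gave 8.80, 13.79 and 13.12 in TA cytoplasm and 13.54, 13.77 and 14.21 in TA nuclei. The summed level of the 5 satellite cell markers (Pax7, Myf5, Calcr, Cdh15 and Chrdl2) was 6.47 to 7.60 over EDL and soleus, 6.80 to 12.54 in TA cytoplasm and 11.89 to 12.21 in TA nuclei, with 2 of 5 not well above background on any TA nuclear array. This sum was nearly all Cdh15, while Pax7 gave 4.79 to 5.98 in TA nuclei and 2.68 to 3.88 in EDL nuclei. Of 2 satellite cell markers tested, 2 were called higher in TA nuclei than in EDL nuclei, beside 7.59% of all probes. Against soleus nuclei 1 of 2 was called higher, beside 7.75%. In soleus nuclei 4 of the 5 markers were well above background on all arrays, against 3 in TA nuclei and 2 in EDL nuclei. For the 5 smooth muscle and pericyte markers the sum was 11.69 to 12.10 over EDL and soleus, 11.84 to 14.10 in TA cytoplasm and 13.94 to 14.52 in TA nuclei. Acta2 led the latter sum, and Tagln, another smooth muscle gene, was not low in TA cytoplasm 1, with 11.14, 11.33 and 11.37 in TA cytoplasm and 10.54, 10.84 and 11.12 in TA nuclei. The part of these genes, of slide and of scan day in the Myh3 result was not tested.

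By its brightest probe, Myh8, the perinatal chain, was nearly level over the muscles. Its brightest probe (A_51_P143296) gave 14.92, 14.92 and 14.94 in EDL nuclei, 14.66, 14.76 and 14.73 in soleus nuclei and 14.73, 14.71 and 14.62 in TA nuclei. In cytoplasm it gave 14.31, 14.12 and 14.33 in EDL, 14.19, 14.64 and 14.24 in soleus and, in TA, 14.16, 13.68 and 13.63. Its only muscle call was TA minus soleus in cytoplasm, -0.53 (adjusted p = 0.0351), which was lost on cytoplasmic arrays alone (adjusted p = 0.232) and without soleus cytoplasm 2 or TA cytoplasm 2 or 3 (adjusted p = 0.0868 to 0.124). The probe nearer the gene start (A_55_P2120161) lay between 13.16 and 14.66 and was lower in soleus nuclei than in EDL nuclei, by -0.88 (adjusted p = 0.0129, 0.0511 with pairing by mice and 0.0533 to 0.103 without any single EDL nuclear array or soleus nuclei 2 or 3), and higher in TA nuclei than in soleus nuclei, by 0.81 (adjusted p = 0.00465). For TA minus soleus, A_51_P143296 gave -0.03 in nuclei (adjusted p = 0.93), and A_55_P2120161 gave 0.36 in cytoplasm (adjusted p = 0.125). In neither fraction were both probes called. The remaining 2 Myh8 probes were at background: A_55_P2120169 lay between 2.45 and 4.60, with 1 array well above background, and A_51_P239800 had values on 6 arrays, between 2.73 and 3.94. Whether the signal of the 2 bright probes came from Myh8 or from transcripts of other myosin heavy chains was not tested.

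**Figure D3:**
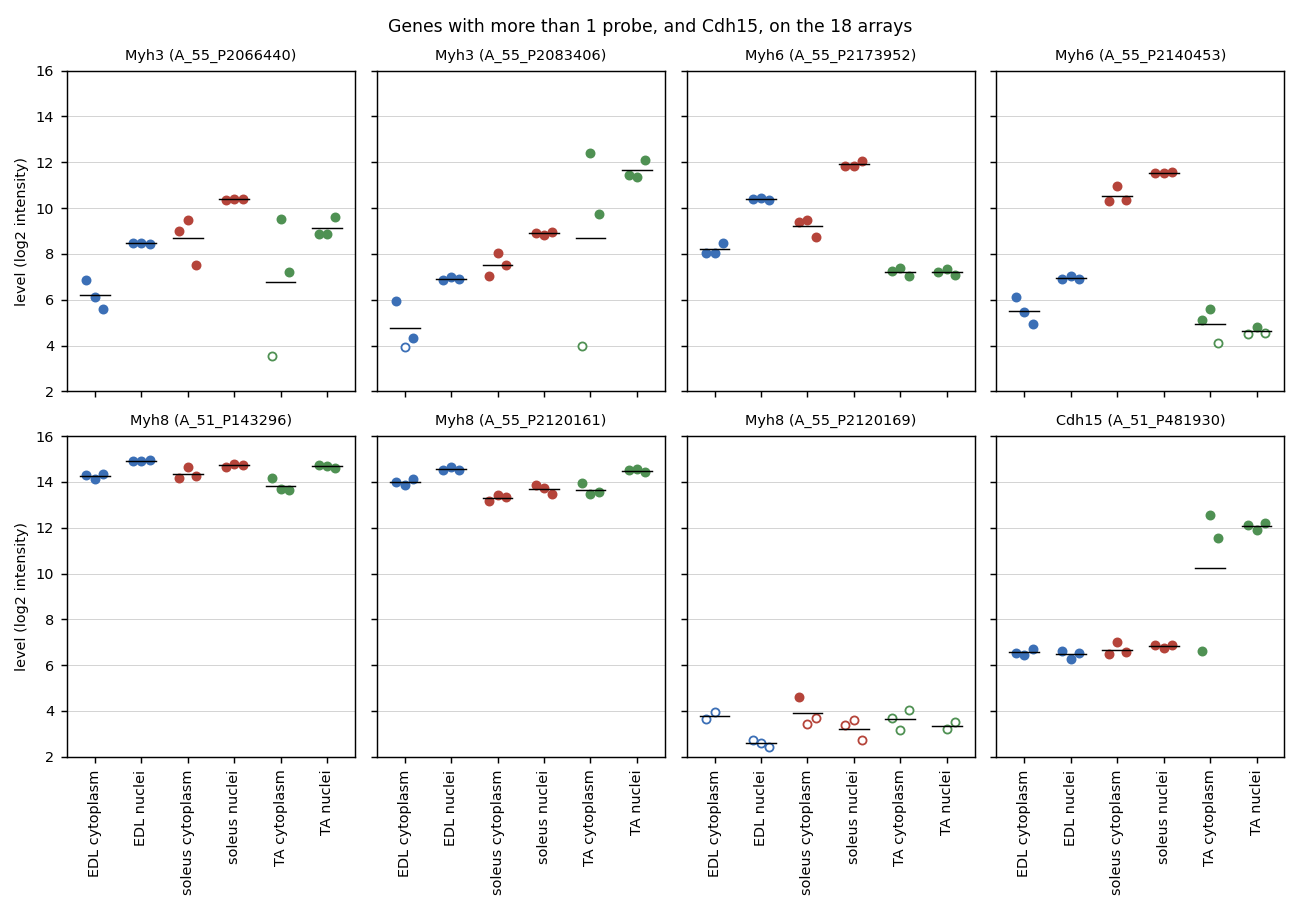
Level (log2 intensity) of each probe of Myh3, Myh6 and Myh8 that was tested, and of Cdh15, on the 18 arrays, with black lines at group means and open points where the spot was not well above background. TA cytoplasm 1 lies low for Myh3 (3.53 and 3.98) and for Cdh15 (6.60), apart from TA cytoplasm 2 and 3.

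TA and EDL are both fast muscles, and the members called different between them were Myh2, Myh3, Myh6, Myh7 and Myh7b. In nuclei, 5 of 12 members were called lower in TA against 9.81% of all probes, namely Myh2, both Myh6 probes, Myh7 and Myh7b, and 1 was called higher (Myh3) against 7.59%. In cytoplasm, 3 were called lower against 7.33% (Myh2, Myh6 A_55_P2173952 and Myh7b), and 0 higher against 5.12%. On 9 arrays, the counts were 3 higher and 7 lower in nuclei (background 19.3% and 29.0%), and 0 in cytoplasm (background 0.00431% and 0.0172%). Among the 3 was the Myh8 probe A_55_P2120169 (adjusted p = 0.0437), which was at background in both groups. EDL and TA nuclei were on different slides, and with slide as a random block 1 member was called lower in nuclei and 1 in cytoplasm. Of all probes, 0.0739% and 1.41% were then called lower. Against soleus, TA nuclei had 2 members higher and 5 lower (background 7.75% and 11.9%) and TA cytoplasm 1 higher and 6 lower (15.8% and 12.8%). With 9 arrays these counts were 4 and 6 in nuclei (19.4% and 29.3%), and 1 and 5 in cytoplasm (1.49% and 2.83%).

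Between fractions, members were mostly higher in nuclei. In EDL, 7 of 12 members were called higher in nuclei against 20.0% of all probes, and 1 was called lower against 26.5%, the Myh8 probe at background in both groups. In soleus 4 were higher against 18.7%, and 0 were lower against 21.7%. In TA 5 were higher against 19.2%, and 0 were lower against 33.5%. The median of the members was 1.00 in EDL against -0.05 for all probes, 1.09 in soleus against -0.01, and 0.85 in TA against -0.22. All 3 nuclear arrays lay above all 3 cytoplasmic arrays for 11 of 12 probes in EDL, 10 in soleus and 6 in TA. The share of all probes separated in this way was not counted, so these numbers describe the members only. For the mean of the 3 muscles, 11 members were called higher against 31.2% and 1 lower against 38.6%, again the Myh8 probe at background (A_55_P2120169). With the nuclear arrays of a muscle averaged to 1 sample, the members' medians stayed at 1.00, 1.09 and 0.85, and at 1.01 for the mean. Fewer members and fewer of all probes were then called in each muscle and for the mean. The 5 connective tissue markers (Col1a1, Col1a2, Col3a1, Dcn and Pdgfra) were also all called higher in nuclei in each muscle, with medians of 1.20, 0.79 and 0.77, and the 6 myofiber markers had 4, 2 and 4 called higher in EDL, soleus and TA. The part of slide in the fraction differences of EDL and soleus cannot be told apart from fraction, since their nuclei and cytoplasm were on different slides. Slide as a random block left 1 call in each, beside 5.18% of all probes higher and 6.89% lower in EDL, and 3.8% and 3.09% in soleus. That fit does not separate slide from fraction either.

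**Figure D4:**
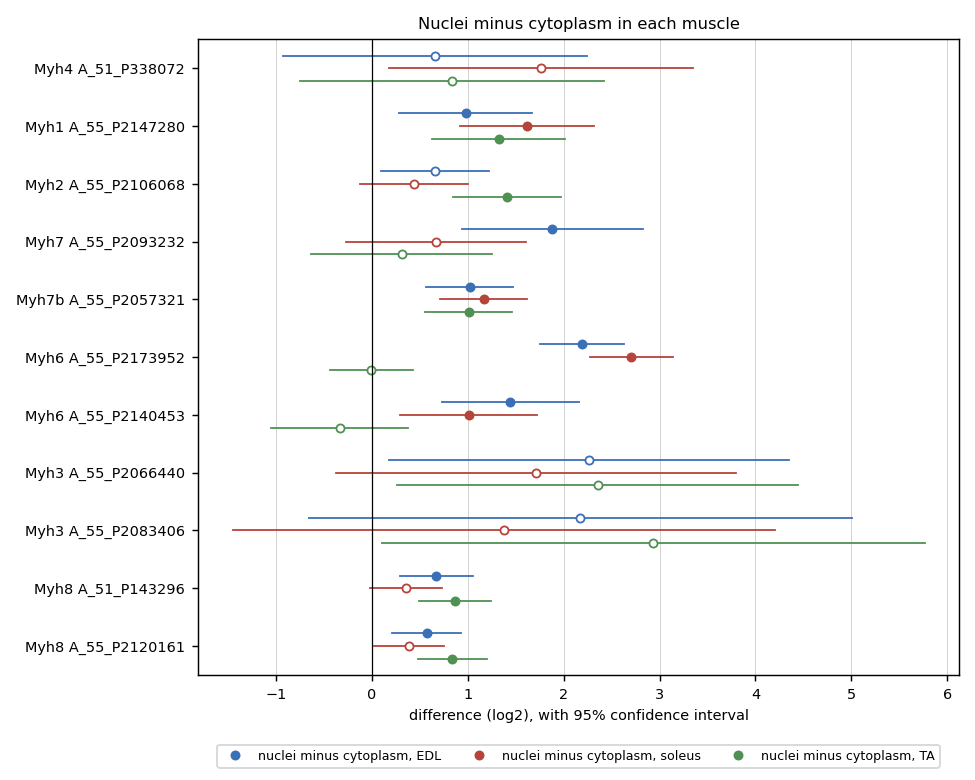
Difference between nuclei and cytoplasm (log2) of 11 member probes in EDL (blue), soleus (red) and TA (green), with 95% confidence intervals and filled symbols where the adjusted p was below 0.05. Nearly all differences lie above 0, and the Myh6 probes in TA lie at -0.01 and -0.34.

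Myh7b and Myh1 were called higher in nuclei in each muscle. For Myh7b the difference in EDL was 1.02, that in soleus 1.16 and that in TA 1.01 (SE 0.21, adjusted p = 0.00127, 0.000636 and 0.00109), and that of Myh1 was 0.98, 1.62 and 1.32 (SE 0.33, adjusted p = 0.0234, 0.00132 and 0.00335). The Myh1 call in EDL was lost with 75th percentile scaling (0.64, adjusted p = 0.180) and without EDL cytoplasm 2 or 3 or any EDL nuclear array (adjusted p = 0.0518 to 0.0778). Each of their nuclear arrays lay above each cytoplasmic array of the same muscle. Myh2 was called in TA (1.41, adjusted p = 0.000470) but not in EDL (0.66, adjusted p = 0.0540) or soleus (0.44, adjusted p = 0.198). Myh7 was called in EDL (1.88, adjusted p = 0.00289) but not in soleus (0.67, adjusted p = 0.241) or TA (0.31, adjusted p = 0.574). Whether Myh2 or Myh7 differed between muscles in this respect did not pass the interaction test. Myh4 was called in no single muscle, with differences of 0.65, 1.76 and 0.84, and for the mean of the 3 muscles it was 1.08 (adjusted p = 0.0344). That mean was not called with 75th percentile scaling (0.95, adjusted p = 0.0578) or without EDL cytoplasm 2, EDL nuclei 2, soleus cytoplasm 2 or 3, soleus nuclei 3, TA cytoplasm 2 or 3 or TA nuclei 2 (adjusted p = 0.0522 to 0.0759). Without soleus cytoplasm 1, the soleus difference of Myh4 was 3.19 (adjusted p = 9.60e-08).

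The developmental members had smaller or more variable differences. Myh8 (A_51_P143296) was called higher in nuclei in EDL (0.67, SE 0.18, adjusted p = 0.00581) and TA (0.86, adjusted p = 0.000854), and the value in soleus was 0.36 (adjusted p = 0.116). Its second probe gave 0.57 (adjusted p = 0.0124), 0.84 (adjusted p = 0.000802) and 0.39 (adjusted p = 0.0804). With scaling to the 75th percentile in place of quantile normalization the Myh8 difference for A_51_P143296 in EDL was 0.26 (adjusted p = 0.269) and that for the second probe 0.15 (adjusted p = 0.523). Myh3 (A_55_P2066440) gave 2.27 in EDL (SE 0.98, adjusted p = 0.0697), 1.71 in soleus (adjusted p = 0.177) and 2.35 in TA (adjusted p = 0.0552), and its mean difference of 2.11 was called (adjusted p = 0.00373). With pairing by mice Myh3 was called in EDL (adjusted p = 0.0381). In the fit without a block, the other Myh3 probe gave 2.93 in TA (adjusted p = 0.0757). The TA values rested on TA cytoplasm 1, since without it Myh3 gave 0.74 (adjusted p = 0.334) and 0.57 (adjusted p = 0.482) in TA.

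Myh6 was the member whose fraction difference changed with muscle. The brighter probe was higher in nuclei by 2.19 in EDL (SE 0.20, adjusted p = 1.96e-06) and 2.71 in soleus (adjusted p = 3.30e-07), and by -0.01 in TA (adjusted p = 0.983). Each nuclear array exceeded each cytoplasmic array in EDL and soleus, and the fractions overlapped in TA. The fractions of EDL and soleus were on different slides, so no fit here, with or without a slide block, separates slide from fraction in this pattern. The interaction of muscle and fraction was called for this probe (F = 49.3, adjusted p = 0.00284 over all probes), the only member call, against 1.55% of all probes. It was 0.0422 with slide as a random block, and no call was made with nuclear arrays averaged (adjusted p = 1). The other probe ran in the same order, with 1.45 in EDL (adjusted p = 0.00261), 1.01 in soleus (adjusted p = 0.0256, and 0.0574 to 0.0853 without soleus cytoplasm 1 or 3 or any soleus nuclear array) and -0.34 in TA (adjusted p = 0.410), and its interaction was not called (adjusted p = 0.112). Its TA levels were near background, with 4.13 to 5.61 in cytoplasm and 4.51 to 4.81 in nuclei, whereas the brighter probe was well above background on all TA arrays.

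Genes that work with the myosin heavy chains moved in part with them. Of 20 thick filament partners and folding factors, 10 were called higher in nuclei and 1 lower in each muscle, with medians of 0.86, 0.83 and 1.01 for EDL, soleus and TA, against -0.05, -0.01 and -0.22 for all probes, of which 20.0%, 18.7% and 19.2% were called higher and 26.5%, 21.7% and 33.5% lower. Ttn, the giant spring and scaffold of the sarcomere, was higher by 1.35, 1.45 and 1.00, and Unc45b, a chaperone of myosin, by 0.85, 0.92 and 1.17. Trim55, a sarcomere-associated ubiquitin ligase, was lower by -0.79, -0.85 and -1.54. Of 6 other myosin heavy chains (Myh9, Myh10, Myh11, Myh13, Myh14 and Myh15), 5 were higher in EDL nuclei, 4 in soleus nuclei and 3 of 5 tested in TA nuclei, where 2 were lower, beside the same shares of all probes.

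The slow and fast partners were also compared between muscles. Of 9 slow fiber genes, 8 were higher and 0 lower in soleus than in EDL in nuclei, with a median of 3.85, and likewise 8 and 0 in cytoplasm, beside 0.978% (nuclei) and 0.853% (cytoplasm) of all probes. Myl3, the slow ventricular-type essential light chain, was higher by 3.85 in nuclei and 4.26 in cytoplasm, and Tnni1, the slow troponin I, by 5.68 and 5.47. Of 10 fast fiber genes, 0 were higher and 2 lower in soleus nuclei (Casq1 and Myoz1), and 3 lower in cytoplasm, where the parvalbumin gene Pvalb joined them at -3.12 (0.579% and 0.570% of all probes were lower). In TA against EDL, 4 of 9 slow genes were lower in each fraction against 9.81% and 7.33% of all probes, and Myl2, the slow regulatory light chain, was lower by -5.83 in nuclei. Among 13 regulators of fiber type, set beside these same shares, Prox1, a homeobox gene, was the only one higher in soleus nuclei (2.83, adjusted p = 0.000337), and 2310065F04Rik, a transcript within the chromosome 11 cluster, the only one lower (-2.27, adjusted p = 0.000964). This last RNA lies at chr11:66925963-66926022 (mm9, minus strand) by its probe, and was higher in nuclei in EDL (1.08, adjusted p = 0.0105) and lower in nuclei in soleus (-0.84, adjusted p = 0.0430).

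Patterns over the 18 arrays were compared after the mean of each fraction was taken off. These correlations are descriptions over arrays that share muscle groups and slides. The highest r between members was 0.96, for Myh7 and Myh7b, and the lowest was -0.90, for Myh4 and Myh7b. Of 23958 candidate probes the most like Myh7b were Myom3 and Phyhd1 (r = 0.991 for both) and BC048679 (r = 0.985), and for Myh7 they were Igsf1 (r = 0.985), Myl3 (r = 0.978) and Myom3 (r = 0.975). For Myh2 they were Acadl (r = 0.981), Cpt2 and Ptgr2 (r = 0.974 for both), of which Acadl and Cpt2 encode enzymes of fatty acid oxidation. Myh4 was most like a lincRNA probe (A_30_P01028705) and the carnosine synthase gene Carns1 (r = 0.965 for both) and the lactate transporter gene Slc16a3 (r = 0.960), and Myh6 was most like Mkx (r = 0.989), Hoxd9 (r = 0.971) and Nfatc2 (r = 0.967). The r was lower for Myh1 (Zfp503, 0.902, Gm6981, 0.889, and Bhlhe41, 0.884), Myh3 (Mdk, 0.949, Wasf1, 0.932, and Smtn, 0.931) and Myh8 (Gm5471, 0.926, a lincRNA probe, A_30_P01023621, 0.926, and Taf13, 0.924).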

How the data were processed

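RNA of nuclear and cytoplasmic fractions was measured on 18 one-colour Agilent arrays (SurePrint G3 mouse 8x60K, mm9). Per the file headers, the authors' deposited scanner files hold an intensity per spot, corrected for background by Feature Extraction 10.7.3.1 and not scaled between arrays. A value table that they deposited as well holds no member probe and was not used. After removal of 3671 control spots, log2 of the processed intensity was used where a spot was marked as positive and significant (78.9% to 89.3% of spots) and not as an outlier (0.263% to 0.568%). Quantile normalization followed, and a probe name was represented by the mean of its spots. Well above background were 58.6% to 71.2% of spots, and 0 member spots were saturated. The number of arrays limits the precision. The means of 6 groups were fitted with limma 3.58.1 (R 4.3.3, prior df 3.27, 12 residual df), with at least 2 of 3 values required per group, and Benjamini-Hochberg adjustment over all probes tested. All tests were 2-sided, and the code was tested on simulated data. The methods' test was Significance Analysis of Microarrays, run as an alternative. Other software was statmod 1.5.0, the R package data.table in version 1.17.8, matplotlib 3.10.9, pandas 2.3.3 and numpy 2.4.6 under Python 3.11.15.

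Members, gene lists and markers were chosen with earlier results of these data known. For each gene, the brightest probe was described by array and the others by range, with opposite calls named, and the 3 genes with the most similar pattern were named, as were up to 3 genes of each list (brightest probe per gene). Further genes and probes named (LOC674761, Cdh15, Acta2) were chosen after their values were seen. EDL and soleus samples of 1 number shared mice, per the labels. Deviations from group means of samples from the same mice correlated at -0.111 to 0.101 over 35528 probes in 18 pairs, those of same-numbered samples with 1 mouse in common at -0.093 to 0.121 in 6 pairs, and those with no shared mice at -0.178 to 0.131 in 21 pairs. Pairing by mice means the replicate number as a block, and it applies to EDL and soleus only. Such values are given where they change a call.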

Additional observations from a re-analysis of the deposited data

Results flagged for a closer look

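The nuclei minus cytoplasm difference of Myh6 (probe A_55_P2173952) differed between muscles by the interaction of muscle and fraction, with an adjusted p of 0.00284 from limma's moderated F test. Nuclei exceeded cytoplasm by 2.19 in EDL and by 2.71 in soleus, and in TA the difference was -0.01. TA cytoplasm 2 and TA nuclei shared a slide, whereas the fractions of EDL and soleus were on different slides. With slide as a random block the adjusted p of this F test was 0.0422, but such a block cannot separate slide from fraction in EDL and soleus.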

How the results depend on the processing

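Counts are member probes called of 10 to 13 tested, with 12 tested in the setting of the report. With 75th percentile scaling, EDL nuclei against cytoplasm gave 5 in place of 8 (19.7% of all probes higher and 33% lower). Without scaling between arrays, soleus gave 9 in place of 4 and the interaction 2 in place of 1. In soleus 57.4% of all probes were then called higher in nuclei and 4.76% lower. The median of all probes was then 0.35 in EDL, 0.96 in soleus and -0.16 in TA, and the members' medians were 1.44, 2.01 and 0.87. Normexp correction gave 2 for the interaction and 5 in place of 3 for TA minus EDL in cytoplasm (6.86% of all probes higher and 7.76% lower). With spots well above background only, soleus gave 9 (27.3% of all probes higher and 15.3% lower) and TA minus EDL in cytoplasm 5 (7.71% and 8.87%). With nuclear arrays averaged to 1 sample, fewer members and fewer of all probes were called in each comparison, and the interaction call was lost. Soleus minus EDL and TA minus EDL in nuclei kept no call, among members or among all probes. Fewer samples enter this fit, and the lone nuclear sample is assumed to vary like the cytoplasmic groups. Slide as a random block (correlation 0.524) gave 1 in EDL, 1 in soleus and 6 for the mean. Of all probes, 5.18% were then higher and 6.89% lower in EDL, 3.8% and 3.09% in soleus, and 16.2% and 19.9% for the mean. It gave 1 and 4 for TA minus EDL and TA minus soleus in nuclei and 1 for TA minus EDL in cytoplasm. All of these were lower in TA, beside 0.0739%, 0.508% and 1.41% of all probes. It also turned the mean Myh3 difference of A_55_P2083406 from 2.16 to -0.13 (adjusted p = 0.947). The 9 arrays of a fraction gave 10 for soleus minus EDL and 10 for TA minus EDL in nuclei, and 3 and 0 in cytoplasm. Significance Analysis of Microarrays gave 12 in soleus, 11 higher in nuclei and 1 lower, the Myh8 probe at background (A_55_P2120169). It called 31.6% of all probes higher and 32.6% lower there. The replicate block gave 4 for soleus minus EDL in cytoplasm (0.493% of all probes higher and 0.325% lower). TA numbers, which had a block of their own, do not pair mice throughout (TA cytoplasm 3 and TA nuclei 3 came from different mice); with it Myh3 was called in TA nuclei against cytoplasm (adjusted p = 0.0288 and, for A_55_P2083406, 0.0446) and for TA minus EDL in cytoplasm (A_55_P2083406, 0.0397), and Myh8 was not called for TA minus soleus in cytoplasm (0.0511). Beside these and the calls named in the report, it changed no other call. The other causes were not tested.

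Leaving out 1 array gave 6 to 8 in EDL, 3 to 6 in soleus, 5 to 7 in TA, 10 to 12 for the mean, 1 to 3 for the interaction, 4 to 5, 3 to 4 and 7 to 7 in nuclei and 4 to 6, 2 to 7 and 6 to 8 in cytoplasm for soleus minus EDL, TA minus EDL and TA minus soleus. Without EDL cytoplasm 2, soleus minus EDL in cytoplasm gave 4; without EDL nuclei 3, TA minus EDL in nuclei gave 3; without soleus cytoplasm 1 or TA cytoplasm 3, the interaction gave 2 or 3; without TA cytoplasm 1, TA minus EDL in cytoplasm gave 7. Over single probes, leaving out 1 array kept direction and side of the threshold in 985 cases, lost a call in 56, gained one in 19 and reversed 0. The other settings kept 1135, lost 102, gained 92 and reversed 1. The deposited value table could not be run as an alternative, since it holds no member probe.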
